A study of Mus musculus with 12 samples.

Results

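Resting brain macrophages of graft and of host origin were compared by their accessible chromatin. The comparison covers every merged ATAC-seq peak of untreated mice that held more than 10 tags in at least 1 of 6 libraries, which is 59170 of the 60288 merged peaks of untreated mice and of 115241 merged peaks in the whole series. A tag is a read assigned to a peak, and in ATAC-seq a transposase cuts and labels DNA where chromatin is open, so more tags mean more open chromatin. All mice were bone marrow (BM) chimeras on the C57BL/6J background with the genotype WT, irradiated with 950 cGy and given donor BM, and analysed 3.5 or 9 months later. The labels do not say which interval applied to which animal, and the study's results text places these profiles at the later time. From the brain, 30000 to 50000 cells per library were sorted, CD45.1 cells (graft-derived macrophages) and CD45.2 cells (host microglia). There were 3 libraries of each population, with the replicate numbers 4, 5 and 6 in their titles. Libraries of the same number were taken to come from 1 animal, named mouse 4, 5 or 6 below. The host cells had themselves been irradiated, and the study describes the donor BM as congenic, with CD45.1 alleles. Irradiation, time in the brain, origin and the congenic donor background thus cannot be told apart in this comparison.

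Microglia are the macrophages of the brain parenchyma and arise from yolk sac progenitors that enter the brain before birth. After irradiation and BM transfer, cells descending from haematopoietic stem cells also settle there and take on much of the microglial phenotype. Macrophages at the borders of the brain, in the meninges, choroid plexus and perivascular spaces, are a separate population with their own marker genes. The accessible sites of macrophages are bound by lineage factors such as PU.1 and C/EBP, and sites far from promoters differ more between macrophage populations than promoters do.

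A peak was called different where the adjusted p of DESeq2 was under 0.01 and the populations differed by more than 4-fold. Fold changes are log2 values, CD45.1 over CD45.2, where a positive one means more accessible chromatin in grafted cells. By this rule 6.43% of tested peaks were called, 3.78% with more tags in the graft and 2.65% with more tags in the host. Total tags per library ranged from 8392877.5 to 9107770. The library that stood apart was CD45.2 of mouse 4, which had 18.4% of its tags in merged peaks, against 29.7% to 39.0% in the other 5. Without both libraries of that mouse, 1577 peaks in place of 2237 were called higher in the graft and 809 in place of 1567 higher in the host. The libraries came from whole sorted populations, in which fewer cells with an open site cannot be told apart from a site less open in every cell.

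The sequences below belong to peaks that the results turn on, and are shown because each has the smallest adjusted p of its annotation class or gene and direction, except that of Hapln1, which is shown as a copy of a repeat described later. They are printed on the plus strand of mm9, 5′ to 3′, with matches to searched motifs in capitals: TTGCNNAA for C/EBP, GGAAGT for PU.1, TGCTGAC for the MAF half-site, CCCCNCCC for the KLF and SP box, and the NF-kappaB and MEF2 motifs by name, all on both strands.
Hs3st1 promoter, higher in graft, chr5:40035887-40036017: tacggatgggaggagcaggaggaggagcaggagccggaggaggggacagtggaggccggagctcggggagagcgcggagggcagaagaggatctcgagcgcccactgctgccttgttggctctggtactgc
Cxcr4 upstream, higher in graft, chr1:130601829-130601996: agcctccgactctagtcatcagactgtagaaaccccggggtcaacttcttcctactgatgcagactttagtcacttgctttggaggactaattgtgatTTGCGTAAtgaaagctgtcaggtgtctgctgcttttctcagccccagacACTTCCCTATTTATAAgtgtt
Trps1 distal, higher in graft, chr15:50529383-50529540: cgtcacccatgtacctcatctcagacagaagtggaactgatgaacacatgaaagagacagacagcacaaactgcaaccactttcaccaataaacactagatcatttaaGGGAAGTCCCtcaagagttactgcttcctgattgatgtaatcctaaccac
Prkar2b intron, annotated to Hbp1, higher in graft, chr12:32681852-32681994: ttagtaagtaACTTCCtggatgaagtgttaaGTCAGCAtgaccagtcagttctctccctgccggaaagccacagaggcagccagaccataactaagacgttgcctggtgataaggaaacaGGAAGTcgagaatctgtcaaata
G530011O06Rik upstream, higher in graft, chrX:166436002-166436297: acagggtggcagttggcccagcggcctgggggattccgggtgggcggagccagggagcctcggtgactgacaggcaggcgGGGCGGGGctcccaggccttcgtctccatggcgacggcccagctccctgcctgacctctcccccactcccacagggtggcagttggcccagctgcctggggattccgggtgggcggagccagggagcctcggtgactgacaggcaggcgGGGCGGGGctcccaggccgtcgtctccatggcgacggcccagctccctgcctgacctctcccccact
Klf12 upstream, higher in host, chr14:100623509-100623627: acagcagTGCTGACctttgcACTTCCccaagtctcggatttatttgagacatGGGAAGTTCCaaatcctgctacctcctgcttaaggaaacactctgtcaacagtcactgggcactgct
Sall1 upstream, higher in host, chr8:91706417-91706550: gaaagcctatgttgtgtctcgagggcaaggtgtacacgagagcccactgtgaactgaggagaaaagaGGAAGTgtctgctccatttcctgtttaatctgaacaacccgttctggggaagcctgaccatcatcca
4930511A08Rik intron, higher in host, chr6:94109334-94109450: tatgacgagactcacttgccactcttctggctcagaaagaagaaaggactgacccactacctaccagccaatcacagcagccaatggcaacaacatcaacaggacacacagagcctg
Hapln1 upstream, RLTR44B repeat, higher in host, chr13:89524435-89524596: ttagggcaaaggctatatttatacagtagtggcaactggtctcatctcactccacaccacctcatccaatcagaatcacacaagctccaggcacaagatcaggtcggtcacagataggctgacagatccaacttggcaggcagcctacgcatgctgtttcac
The Cxcr4 site held a C/EBP match, and its PU.1 match ran directly into a MEF2 match. In the Trps1 and Klf12 sites a PU.1 match and an NF-kappaB match shared bases. The Hs3st1, 4930511A08Rik and Hapln1 sites held none of the searched motifs. The site upstream of G530011O06Rik carried the same run of 70 bases more than once, each copy with a KLF and SP box, and short reads from such copies are placed with less certainty.

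Called peaks were rare at promoters and common far from genes. At promoters 0.80% of 13193 tested peaks were higher in the graft and 0.81% higher in the host. In introns the shares were 4.16% and 3.10% of 22956 peaks, and between genes 5.71% and 3.29% of 19341. Exons went the other way, with 26 peaks higher in the graft and 54 higher in the host. The share called in either direction rose with distance from the nearest annotated start, from 1.50% within 1 kb to 24.1% beyond 200 kb, and beyond 200 kb the host had the larger share (13.3% against 10.8%). Called peaks were as a rule open in one population and near background in the other: the median peak higher in the graft held 26.1 normalized tags in graft and 2.63 in host libraries, and the median peak higher in the host had 2.46 and 23.1. In the authors' own peak lists, 95.4% of the peaks higher in the graft were found in none of the CD45.2 libraries. Likewise, 95.1% of those higher in the host were found in none of the CD45.1 libraries. For peaks not called these shares were 10.7% and 18.5%. The lists come from the same libraries as the calls and are not independent of them.

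**Figure D1:**
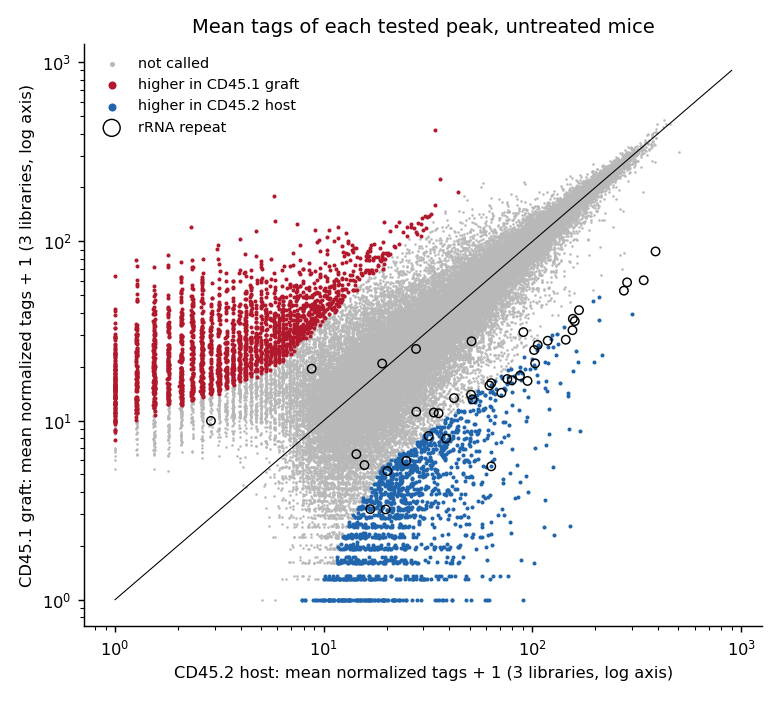
Mean normalized tags plus 1 of each of the 59170 tested peaks in the 3 CD45.2 libraries (x axis, log scale) and the 3 CD45.1 libraries (y axis, log scale), with the 2237 peaks called higher in the graft in red and the 1567 called higher in the host in blue. Most called peaks sit near the axis of the population where they are low, while the open circles, 41 peaks in rRNA repeats, lie mostly along a line below the diagonal.

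**Figure D2:**
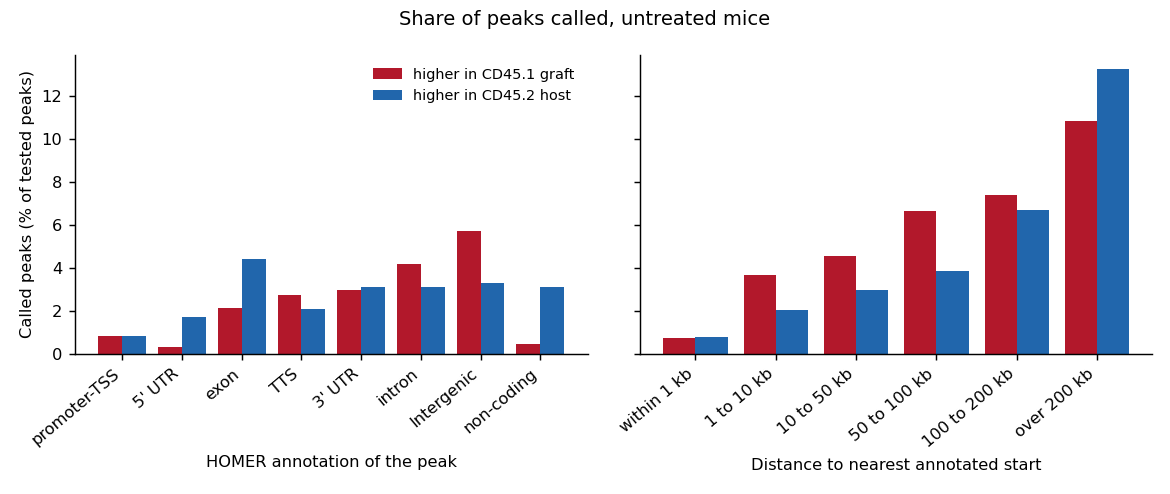
Share of tested peaks called higher in CD45.1 (red) or CD45.2 (blue), in percent, by HOMER annotation of the peak (left) and by distance to the nearest annotated start (right). With both directions together, promoters (0.80% and 0.81%) have the lowest share of the annotation classes, and peaks beyond 200 kb (10.8% and 13.3%) the highest of the distances.

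Peaks higher in the graft were poorer in G and C. Their median GC content over 200 bp was 43.0%, against 51.0% in peaks higher in the host and 52.5% in peaks not called. In the lowest quintile of GC content, 12.5% were higher in the graft and 2.00% higher in the host, and in the middle quintile 1.53% and 3.96%. The shift was not limited to called peaks. Over all tested peaks the median log2 fold change was 0.24 in the lowest quintile and between −0.11 and 0.03 in the others. Its source was not tested. With a GC correction 1612 peaks were called higher in the graft and 1583 higher in the host, in place of 2237 and 1567. The larger number in the graft was thus nearly gone. A mouse block with the GC correction gave 1211 and 1185. The shares by annotation class and distance above are without this correction.

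The motif content of the called peaks differed by direction. The C/EBP motif TTGCNNAA lay within 200 bp around the centre of 21.6% of peaks higher in the graft, 8.62% of those higher in the host and 9.89% of all tested peaks. AP-1 (TGANTCA), bound by Fos and Jun family dimers, and RUNX (TGTGGTT) were also more frequent in graft peaks, with 17.6% against 7.85% and 11.8% against 3.70%. So were the IRF motif (7.11% against 2.81%), the MEF2 motif (6.66% against 1.91%) and, by a smaller margin, the homeobox motif TAATTA (4.25% against 1.79%). PU.1 (GGAAGT), the factor that all macrophages need, was about equally frequent in both directions, at 40.2% and 40.7%, and somewhat above all tested peaks at 35.8%. More frequent in host than in graft peaks was the NF-kappaB motif (10.98% against 6.71%, and 13.7% of all). So were the KLF and SP box (13.3% against 9.21%, and 20.4% of all) and the E-box CACGTG (6.25% against 3.93%). The MAF half-site TGCTGAC was too (9.51% against 6.66%, and 5.42% of all). The GATA motif AGATAAG was in 2.68% of host and 1.88% of graft peaks. Its difference, graft minus host, was −0.80 percentage points, with an interval of 0.98 points to either side. CTCF motifs, which mark boundaries of chromatin domains, were found in 0.492% and 1.21% of called peaks and in 5.16% of all. Within the lowest quintile of GC content, which held 1601 of the graft peaks and 256 of the host peaks, C/EBP (24.05% against 14.1%), AP-1 (18.2% against 12.5%), RUNX (12.3% against 4.69%) and MEF2 (8.12% against 3.52%) were still more frequent in graft peaks, and the MAF half-site (6.75% against 10.5%) in host peaks. There the order turned for the homeobox (4.75% against 5.47%) and IRF motifs (8.37% against 9.77%), the KLF and SP box (4.68% against 3.13%) and the E-box (3.25% against 2.73%), and PU.1 was at 42.0% and 47.3%. In that lowest quintile the NF-kappaB motif was in 4.87% of graft and 5.47% of host peaks. In the fourth quintile, with 82 graft and 297 host peaks, its order turned, with 23.2% against 10.4%. In the second, middle and highest quintiles the host share of NF-kappaB was the larger. For the KLF and SP box the graft share was the larger in every quintile except the highest. In the middle quintile, with 185 graft and 480 host peaks, it was in 18.4% of graft and 10.8% of host peaks. In the highest, with 39 graft and 119 host peaks, it was in 51.3% and 53.8%. The larger host share of this box over all called peaks was thus not seen within most quintiles. All these shares are a description.

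Among promoters higher in the graft, 3 belonged to genes of cell surface chemistry, lipid transport and myeloid receptors. The promoter of Hs3st1, a heparan sulfate sulfotransferase, had 205, 201 and 131 normalized tags in CD45.1 of mice 4, 5 and 6, and 6.55, 6.19 and 1.62 in CD45.2. No library of one population reached into the range of the other, which held for 35.4% of tested peaks, and all 4 tested peaks of the gene were called in this direction. The promoter of Apoe, which encodes the main lipid carrier of the brain, had 128, 106 and 124 tags in CD45.1 and 13.1, 8.51 and 10.5 in CD45.2 (log2 fold change 3.53, SE 0.330, adjusted p = 3.76e-23). Clec12a, an inhibitory lectin receptor of myeloid cells, had 65.3, 84.0 and 82.8 tags at its promoter in CD45.1 and 0, 0.774 and 3.25 in CD45.2 (5.61, SE 0.702, adjusted p = 5.65e-13). Every CD45.1 library of both promoters was many times above every CD45.2 library. Next in order were Dynlt1b (6.22), a dynein light chain with near-identical copies among which reads cannot be assigned with certainty, and Klra2 (4.95), a lectin-like receptor of the Ly49 family. The peak of Klra2 was not called after LPS (1.75).

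Among promoters higher in the host were those of Prox1 and Id4, both regulators of development. Prox1, a homeobox factor of lymphatic vessels and neural progenitors, had 1.87, 1.83 and 4.36 tags at its promoter in CD45.1 and 81.9, 79.0 and 83.6 in CD45.2 (log2 fold change −4.97, SE 0.568, adjusted p = 1.57e-15). Id4, a helix-loop-helix protein that blocks DNA binding by its partners, had 3.73, 6.39 and 2.18 tags in CD45.1 and 75.4, 72.8 and 82.8 in CD45.2 (−4.20, SE 0.476, adjusted p = 1.00e-15). In both genes the 3 host libraries were close to each other and all graft libraries were near 0. Lyplal1, a lysophospholipase-like protein, followed with −3.39. The promoters of Myo6, an unconventional myosin, and Ptprm, a receptor tyrosine phosphatase, kept tags in the graft at a lower level, with 52.2, 58.4 and 32.7 tags for Myo6 in CD45.1 and 264, 175 and 185 in CD45.2. Their log2 fold changes of −2.09 and −2.11 were near the limit of 4-fold, and they were not called without CD45.1 of mouse 6 (log2 −1.88 and −1.97), CD45.2 of mouse 4 (−1.91 and −1.97) or without both libraries of mouse 4 (−1.97 and −1.95). The promoter of Garem1, an adaptor protein of growth factor signalling, had −4.10.

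Within introns the graft site with the smallest adjusted p, annotated to Hbp1, lies in Prkar2b, a regulatory subunit of protein kinase A. It had 98.9, 113 and 133 tags in CD45.1 and 9.83, 7.74 and 11.4 in CD45.2 (log2 fold change 3.58, SE 0.343, adjusted p = 4.92e-22). No host library came near the lowest graft library, yet the tags summed over all 8 peaks of Hbp1 were not called (0.06, adjusted p = 0.848). A Mdfic intron (5.00) and a Sdcbp intron (2.18) followed, the latter at 1.99 and no longer called without CD45.2 of mouse 5. The intron site of the host with the smallest adjusted p, annotated to the noncoding gene 4930511A08Rik, had 7.46, 9.13 and 6.53 tags in CD45.1 and 184, 169 and 153 in CD45.2 (−4.43, SE 0.346, adjusted p = 5.18e-33). By GENCODE it lies in Magi1, a scaffold protein of cell junctions. An intron of Slc1a3, the glutamate transporter of astrocytes, had 11.2, 8.21 and 4.36 tags in CD45.1 and 156, 136 and 154 in CD45.2 (−4.20, SE 0.348, adjusted p = 1.42e-29), and a further host site was in an intron of Lyar (−4.78). An exon of Slc1a3 (−2.13) and an exon of Lgmn, the lysosomal protease legumain (−2.11), were called as well. The Slc1a3 exon was not called without CD45.1 of mouse 6 (−1.83). The Lgmn site was not called with a GC correction (−1.90), without CD45.1 of mouse 6 (−1.72), without CD45.2 of mouse 5 (adjusted p = 0.0180) or without mouse 4 (adjusted p = 0.0599).

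Between genes, the graft led at sites nearest to G530011O06Rik (213, 200 and 250 tags in CD45.1 and 37.7, 33.3 and 34.1 in CD45.2), Gm9733 (log2 fold change 4.34) and 4930474N05Rik (4.58). Of the 11 tested peaks of Gm9733, 7 were called higher in the graft, and of the 7 of 4930474N05Rik, 6. In other classes, a site at the transcript end of Klf2, a Kruppel-like factor of quiescence, had 85.8, 78.5 and 93.7 tags in CD45.1 and 8.19, 13.9 and 12.2 in CD45.2 (2.84, SE 0.334, adjusted p = 1.17e-14). Its 8 peaks together gave 589, 624 and 640 tags against 622, 562 and 572 (0.08, adjusted p = 0.746), so the populations overlapped over the gene as a whole. The study describes ATAC signals at the Klf2 locus in host microglia and not in engrafted cells. Here none of the Klf2 peaks was called higher in the host. A peak annotated to Vil1 (3.28) and an exon of Plscr4, a phospholipid scramblase (3.77), completed the graft sites.

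Many called peaks clustered at single genes. They were assigned to 2406 genes, of which 1420 had peaks higher in the graft alone, 902 higher in the host alone and 84 both. Of the 84, 6 had 2 or more in each direction, among them Adgrl2 (4 higher in the graft and 2 in the host) and Wdsub1 (2 and 4).

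In the graft the gene with most called peaks was Trps1, a GATA-type zinc finger repressor, with 12 of 29 over 684 kb. Its peaks summed to 1361, 1384 and 1225 tags in CD45.1 and 522, 428 and 589 in CD45.2 (log2 fold change 1.37, SE 0.113, adjusted p = 3.00e-31). Each graft library held more than any host library. Cxcr4, the receptor for the chemokine Cxcl12, had 10 called peaks of 18, 9 of them between genes and 1 at the promoter, which reached up to 121 kb from its start. It had 730, 802 and 971 tags in CD45.1 and 191, 172 and 243 in CD45.2 (2.04, SE 0.141, adjusted p = 8.86e-45). Mdfic, an inhibitor of MyoD-family factors, had 10 of 20 called, Cmah, the enzyme that converts the sialic acid Neu5Ac, 8 of 11, Sema6d, a transmembrane semaphorin, 8 of 15, and the noncoding C630043F03Rik all 8. The last had 253, 306 and 287 tags in CD45.1 and 19.4, 15.1 and 18.3 in CD45.2 (4.03, SE 0.249, adjusted p = 1.04e-55).

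In the host, Klf12, a Kruppel-like repressor, and Sall1, the zinc finger factor that marks microglia, each had 20 of 22 peaks called. Klf12 had 46.9, 37.1 and 35.9 tags in CD45.1 and 632, 562 and 604 in CD45.2 (log2 fold change −3.90, SE 0.172, adjusted p = 1.02e-109). Its called peaks kept 6.85%, 6.33% and 4.99% of the host's tags in the graft of mice 4, 5 and 6. Sall1 had 124, 187 and 23.2 tags in CD45.1 and 988, 1115 and 1022 in CD45.2 (−3.22, SE 0.758, adjusted p = 0.000323), and its called peaks kept 12.1%, 17.2% and 2.44%. The graft of mouse 6 thus stood well below those of mice 4 and 5 at Sall1 but not at Klf12. CD45.1 of mouse 6 was the lowest library at 16 of the 20 Sall1 sites and held 0 tags at 9, whereas it was the lowest at 6 of the 20 Klf12 sites and at 44.9% of all peaks called higher in the host. Without mouse 4 the Sall1 gene sum had an adjusted p of 0.0844.

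Further host genes were Csmd3, a large transmembrane protein of neurons, with 15 of 20 peaks called, Celf4, an RNA-binding protein, with 15 of 24, Ptprm with 13 of 16 and 4930511A08Rik with 12 of 13. The 12 called sites of 4930511A08Rik all lay in introns within 175 kb. Its peaks summed to 26.2, 33.4 and 12.7 tags in CD45.1 and 651, 648 and 631 in CD45.2 (log2 fold change −4.72, SE 0.202, adjusted p = 2.82e-116). Csmd3 had 124, 189 and 63.4 tags in CD45.1 and 774, 621 and 678 in CD45.2 (−2.46, SE 0.435, adjusted p = 4.64e-07), with the lowest graft library again in mouse 6.

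**Figure D3:**
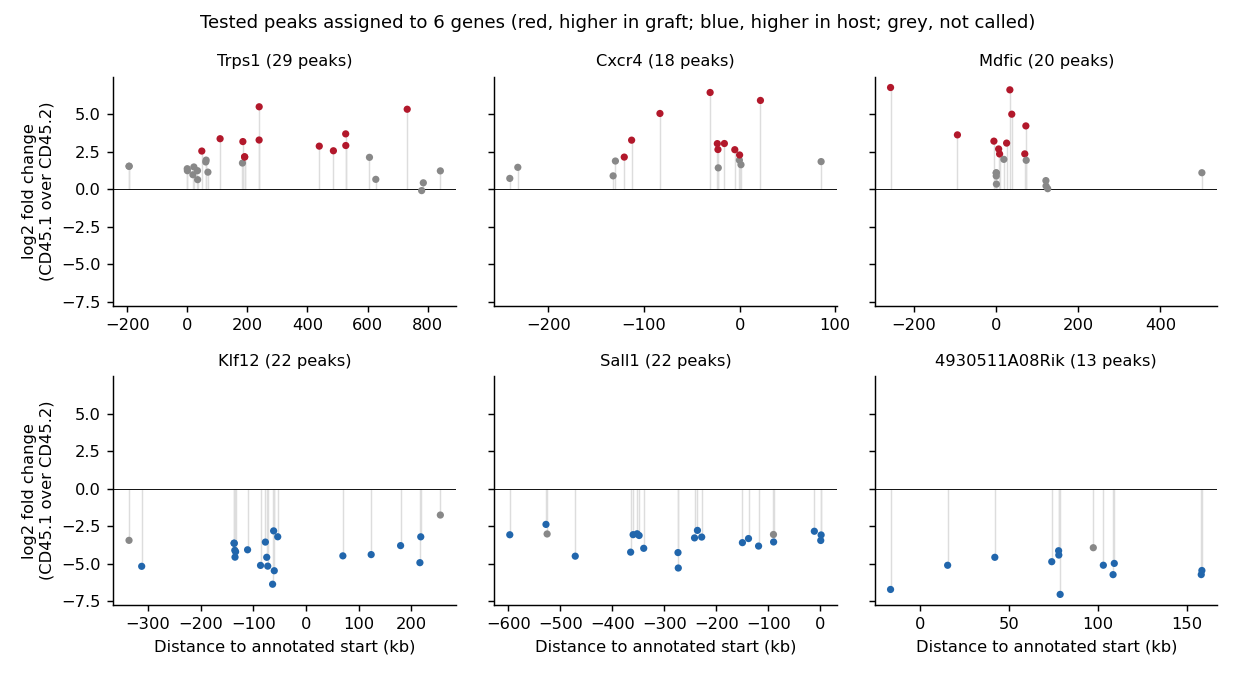
Log2 fold change of CD45.1 over CD45.2 (y axis) of each tested peak assigned to 6 genes, against its distance to the annotated start in kb (x axis). Trps1, Cxcr4 and Mdfic have 12, 10 and 10 peaks called higher in the graft (red), Klf12, Sall1 and 4930511A08Rik have 20, 20 and 12 called higher in the host (blue), and grey peaks were not called.

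Several repeat families went one way. They were examined after the calls were known, so no test is given. Of 20 peaks in the related repeats RLTR44A and RLTR44B, long terminal repeats of the ERVK class of endogenous retroviruses, 16 were called higher in the host and none in the graft (1 at an unadjusted p under 0.05 and none with edgeR), while 2.65% of all peaks were higher in the host. They were spread over 12 chromosomes and 17 nearest genes and summed to 270, 349 and 174 tags in CD45.1 and 1506, 1096 and 1102 in CD45.2. The called peaks include 3 upstream of Hapln1, one in Nsun6 (mean 1.53 against 112 tags, log2 fold change −6.11) and one in Cd46 (0.667 against 59.4, −6.50). Peaks close together, such as those of Hapln1 (chr13:89523447 to 89524596) and of 4930405O22Rik, may not be separate copies. Short reads from related repeats are also placed with less certainty. Copies near Tmem261 (1.32), Rab2a (1.09), Ubxn2b (−0.66) and Oxa1l (−1.19) were not called, so copies of one family differed. The Tmem261 copy was higher in the graft in all 3 mice (DESeq2 adjusted p = 0.000205) and missed only the 4-fold limit. Of the 16 called peaks 13 could be tested in LPS mice, and all 13 were called higher in the host there too. Over the ERVK class 32 of 562 peaks (5.69%) were higher in the graft and 52 (9.25%) in the host. In LINE elements 180 of 1566 (11.5%) were higher in the graft and 70 (4.47%) in the host. Of all tested peaks 3.78% were higher in the graft and 2.65% in the host, so each of these shares lay above that of all peaks. The part of GC content in these shares was not tested. Higher in the graft were 12 of 37 L1_Mur3 peaks, and higher in the host 7 of 34 L1Md_F2 peaks.

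Sites in rRNA repeats, copies of ribosomal RNA genes elsewhere in the genome, and sites that match mitochondrial DNA are given separately, since short reads cannot always be assigned to one copy. Of 41 tested rRNA repeat peaks, 28 were called higher in the host and none in the graft (2 at an unadjusted p under 0.05 and none with edgeR), with log2 fold changes of the called ones between −3.76 and −2.01. Scaled to total tags, 16 were called. Per 1000000 total tags they held 105, 102 and 106 in CD45.1 and 344, 514 and 365 in CD45.2. At 26 of the 28 called sites the highest normalized value was that of CD45.2 mouse 4. In LPS mice all 20 of these sites that could be tested were lower in the graft and 16 were called. The site with the smallest adjusted p in the host, 284 kb from Pex2, is one of them, with 54.1, 63.9 and 61.0 tags in CD45.1 and 429, 327 and 265 in CD45.2. So is the single peak of Cd209a, a lectin of dendritic cells. Conversely, a peak near Col19a1 (chr1:24619528-24619643) matched mitochondrial DNA with 99.5% identity over 200 bp and was higher in the graft, with 366, 330 and 557 tags in CD45.1 and 24.6, 13.9 and 60.9 in CD45.2 (3.65, SE 0.632). With a GC correction it was not called (1.59, adjusted p = 0.0282). Without all these peaks 2233 and 1539 peaks were called, an alternative chosen after seeing the data.

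To describe known gene groups, tags were summed over all peaks assigned to a gene, and 16174 genes were tested. At an adjusted p under 0.05, 14.8% of genes were called, 7.35% higher in the graft and 7.46% higher in the host, and 33.1% had populations that did not overlap. With the mouse as a block 9.84% were called, 4.79% and 5.05% in each direction. With libraries scaled to their total tags, 384 and 391 genes in place of 1189 and 1206 were called. The median gene had a log2 fold change near 0 under each scaling. Genes of the lists are named by their sums in what follows.

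Most microglia genes did not pass the test. All 29 members of the signature had tested peaks, none was called higher in the graft by DESeq2 (1 at an unadjusted p under 0.05 and 1 with edgeR) and 6 were called higher in the host, against 7.46% of all genes. The median log2 fold change was −0.16, with 7 of 29 values above 0. With scaling to total tags 2 were called, and without mouse 4 only 1, Sall3. The purinergic receptor gene P2ry12 had 270, 315 and 220 tags in CD45.1 and 288, 238 and 268 in CD45.2 (0.03, SE 0.149, adjusted p = 0.959). Tmem119, a membrane protein of microglia, had 216, 237 and 167 against 204, 250 and 244 (−0.18, SE 0.157, adjusted p = 0.589). In both genes the populations overlapped. Cx3cr1, the fractalkine receptor (−0.21), Trem2, a lipid-sensing receptor (−0.10), Fcrls (−0.16), Csf1r, the receptor for the survival factor Csf1 (0.23), Aif1 (−0.24), Slc2a5 (−0.27) and Kcnk13 (−0.01) also did not pass the test.

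Among the members that did pass were Sall1, Sall3, Cd34, Golm1 and Ecscr. Sall3, a paralog of Sall1, had 103, 117 and 82.4 tags in CD45.1 and 340, 430 and 344 in CD45.2 (−1.88, SE 0.163, adjusted p = 1.42e-28), with 9 of its 13 peaks called. Cd34, a sialomucin of stem cells and microglia, had 63.7, 92.6 and 38.0 against 168, 147 and 190 (−1.37, SE 0.235, adjusted p = 1.95e-07). Its adjusted p without mouse 4 was 0.218. Ecscr was not called under the mouse block (adjusted p = 0.204).

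Genes of border macrophages were more open in the graft. Of 26 members 24 had tested peaks, 14 were called higher in the graft, against 7.35% of all genes, and none in the host by DESeq2, by edgeR or at an unadjusted p under 0.05. All 24 log2 fold changes were above 0, with a median of 0.99, and 37 of their 95 peaks were called higher in the graft. With scaling to total tags 11 were called, and without mouse 4, 12. The members were chosen with earlier results of these data known, so the count is not independent evidence. The study itself names Cd38, Mrc1, Apoe and Ms4a7 for their mRNA in engrafted cells. It names Cd36, Cmah and Mgl2 in the response of the graft to LPS. Cd36, a scavenger receptor for oxidized lipids, had 604, 624 and 591 tags in CD45.1 and 98.8, 61.3 and 116 in CD45.2 (2.74, SE 0.163, adjusted p = 1.02e-59), with 7 of 10 peaks called. Cd38, an enzyme that breaks down NAD+, had 276, 233 and 243 against 32.4, 22.3 and 29.9 (3.19, SE 0.221, adjusted p = 2.82e-44). Cmah had 294, 300 and 310 against 51.8, 35.0 and 57.4 (2.67, SE 0.189, adjusted p = 1.99e-42). In each of these genes every graft library lay far above every host library.

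The remaining border genes differed less. Clec12a (1.79), Pf4, a platelet factor also made by perivascular macrophages (2.04), Ms4a4a (2.01), Ms4a6b (1.52), F13a1, a transglutaminase of clotting (1.31), and Mrc1, the mannose receptor (0.89, adjusted p = 2.22e-05), were called. Ms4a7, a tetraspan membrane protein, had 144, 172 and 165 tags in CD45.1 and 55.1, 68.4 and 59.8 in CD45.2 (1.38, SE 0.197, adjusted p = 1.73e-10). At its strongest peak the value was −0.05. Mgl2, a galactose-binding lectin, had 8.44, 20.4 and 12.7 against 8.10, 9.55 and 13.3 (0.40, adjusted p = 0.793) and overlapped.

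**Figure D4:**
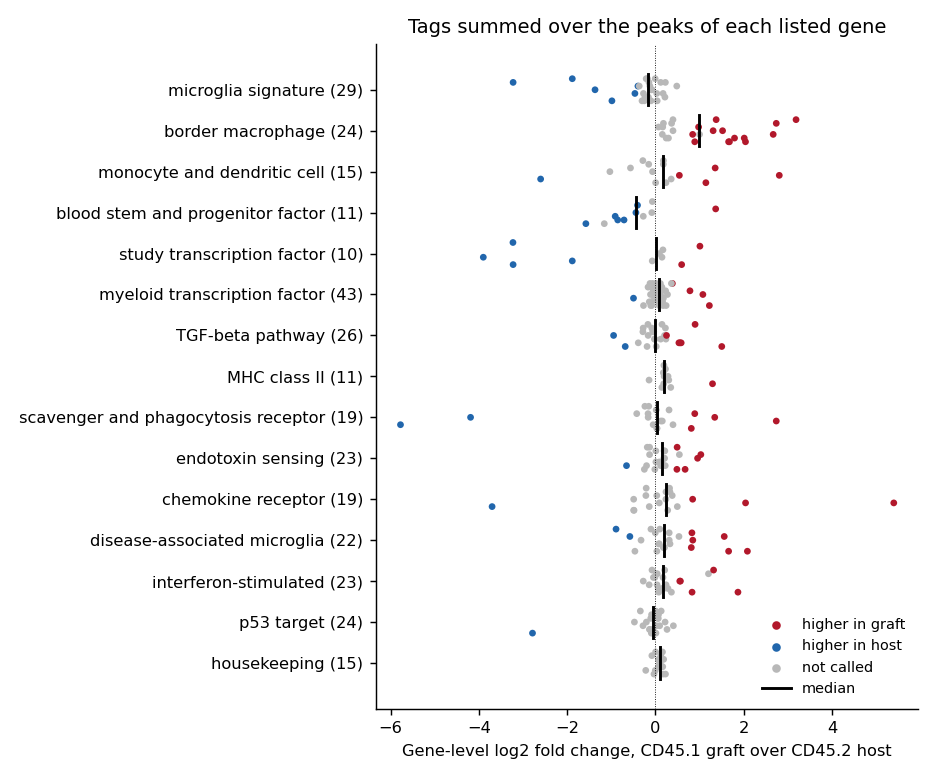
Gene-level log2 fold change of CD45.1 over CD45.2 (x axis) for members of 15 gene lists with tested peaks (number in parentheses), red where called higher in the graft, blue where called higher in the host, with a black bar at the list median. Border macrophage genes lie to the right of 0 with a median of 0.99, and microglia signature genes around −0.16 with Sall1 and Sall3 far to the left.

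Monocyte and dendritic cell genes were mixed. Of 19 members 15 had tested peaks, 4 were called higher in the graft and 1 in the host, with a median of 0.18. The share called was 33.3%, against 14.8% of all genes. Itga4, the integrin alpha 4 chain, had 746, 797 and 718 tags in CD45.1 and 282, 257 and 344 in CD45.2 (1.35, SE 0.120, adjusted p = 7.37e-27), and Lyz1, a lysozyme, had 1.14 (adjusted p = 1.45e-07). Ccr2, the chemokine receptor of classical monocytes, had 54.4, 60.2 and 68.6 against 51.8, 54.1 and 49.0 (0.24, SE 0.253, adjusted p = 0.692). Its ranges came within a few tags of each other. Napsa and Flt3, the receptor of dendritic cell development, were called (2.81 and 0.54) but not with the mouse as a block (adjusted p = 0.118 and 0.0713). The host call was Cd209a, whose only peak is the rRNA repeat site above.

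Factors of blood stem and progenitor cells were as a rule more open in the host. Of 16 members 11 had tested peaks, 6 were called higher in the host and 1 in the graft, with a median of −0.44. The share called was 63.6%, against 14.8% of all genes. With scaling to total tags 1 host call was left, Gata2, and no graft call, and without mouse 4, 4 host calls and no graft call. Gata2, a zinc finger factor of stem cells, had 69.4, 75.0 and 38.0 tags in CD45.1 and 162, 223 and 160 in CD45.2 (−1.58, SE 0.226, adjusted p = 1.72e-10). Myb, which stem cells require and yolk sac macrophages do not, had 165, 195 and 133 against 321, 294 and 316 (−0.91, SE 0.151, adjusted p = 5.20e-08), and Meis1 (−0.85, adjusted p = 5.19e-10) and Hlf (−0.71) followed. Hoxb4, a homeobox factor, was the member higher in the graft, with 46.9, 35.2 and 48.6 against 12.96, 23.1 and 13.3 (1.36, SE 0.371, adjusted p = 0.00270). Without CD45.2 of mouse 6 its adjusted p was 0.0636.

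Of 10 transcription factors that the study singled out, 2 were called higher in the graft and 4 in the host. The study chose them on these and related samples, so their direction is not independent evidence. The share called was 60.0%, against 14.8% of all genes. With scaling to total tags none was called in the graft and 4 in the host, and without mouse 4, 1 and 3. Rxrg, a retinoid X receptor, had 22.5, 44.5 and 30.6 tags in CD45.1 and 303, 315 and 298 in CD45.2 (−3.23, SE 0.206, adjusted p = 6.47e-52), with 9 of 11 peaks called, and Runx3 had 671, 643 and 850 against 301, 382 and 383 (1.01, SE 0.129, adjusted p = 4.88e-13). Esr1, the oestrogen receptor, was higher in the graft with 0.59 (adjusted p = 0.00238), which rose to an adjusted p of 0.0628 or 0.0865 without CD45.1 or CD45.2 of mouse 5. The immediate early genes did not pass the test, with Nr4a1 at 0.17, Fos at 0.13 and Jun at −0.10, nor did the NF-kappaB subunit genes Rel (0.07) and Nfkb1 (−0.12), Mef2c (0.09), Smad3 (0.15) and Hes1 (−0.07).

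Of 43 other transcription factors of myeloid cells 4 were called higher in the graft and 1 in the host, with a median of 0.08. With scaling to total tags or without mouse 4, 2 and none were called. The share called, 11.6%, was below the 14.8% of all genes. Runx2 had 316, 350 and 264 tags in CD45.1 and 159, 144 and 142 in CD45.2 (1.07, SE 0.151, adjusted p = 6.23e-11), and Tfec, of the MITF family, 211, 270 and 225 against 87.5, 100 and 111 (1.22, SE 0.171, adjusted p = 4.66e-11). Bhlhe40 (0.78) and Ets2 (0.38) were called too, Bhlhe40 with an adjusted p of 0.0503 when CD45.1 of mouse 4 was left out and 0.0746 when CD45.2 of mouse 5 was. Cebpe (−0.50) was called higher in the host, and not with the mouse as a block (adjusted p = 0.173).

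TGF-beta, which maintains microglial identity, is made as a latent ligand that binding proteins store and integrins release. Of 27 members of the pathway 26 had tested peaks, 6 were called higher in the graft and 2 in the host, with a median of −0.02. The share called was 30.8%, against 14.8% of all genes. Of the ligands, Tgfb3 was higher in the graft (0.58, adjusted p = 1.81e-05), though not at its strongest peak (−0.03), and Tgfb2 higher in the host (−0.68), the latter not with the mouse as a block (adjusted p = 0.0616). Of the proteins that handle the latent ligand, Ltbp1 had 78.7, 96.4 and 137 tags in CD45.1 and 42.1, 27.1 and 42.4 in CD45.2 (1.50, SE 0.273, adjusted p = 1.09e-06), Itgb8, an integrin chain that activates it, 227, 259 and 202 against 130, 97.9 and 144 (0.90, SE 0.175, adjusted p = 6.70e-06), and Nrros, its anchor on microglia, 0.56 (adjusted p = 0.00744). Of the receptors, Acvrl1 (0.53) and Tgfbr2 (0.25, adjusted p = 0.0998 with the mouse as a block) were higher in the graft and Bmpr1a (−0.95) in the host. Tgfbr1 did not pass the test (0.12). With scaling to total tags 1 of these genes, Ltbp1, was called, and without mouse 4, 3 in the graft and none in the host.

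Scavenger and phagocytosis receptors differed in both directions. Of 20 members 19 had tested peaks, 4 were called higher in the graft and 2 in the host, with a median of 0.03. With scaling to total tags 2 and 1 were called. The share called was 31.6%, against 14.8% of all genes. Marco, a collagen-like receptor for bacteria and particles, had 3.75, 3.71 and 5.28 tags in CD45.1 and 214, 231 and 244 in CD45.2 (−5.78, SE 0.431, adjusted p = 3.74e-38), and each of the 6 Marco peaks was called. Its host libraries agreed within a narrow range and its graft libraries were near 0. Besides Cd36 and Mrc1, the graft had Cd5l, a secreted scavenger protein (1.34, adjusted p = 4.57e-07), and Axl, a receptor for dying cells (0.81, adjusted p = 9.62e-07). Timd4, a phosphatidylserine receptor, rested on 1 tag in CD45.1 and 20 in CD45.2, a ratio of 20.1 with a 95% counting interval from 3.22 to 833, and was not called under the mouse block (adjusted p = 0.117). Msr1 did not pass the test (0.31).

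Of 22 chemokine receptor genes 19 had tested peaks, 3 were called higher in the graft and 1 in the host. With scaling to total tags or without mouse 4, 2 and 1 were called. The share called was 21.1%, against 14.8% of all genes. The pair of receptors for Cxcl12 went in opposite directions. Ackr3, the atypical receptor that takes up Cxcl12 without classical signalling, had 7.50, 11.1 and 4.22 tags in CD45.1 and 77.8, 114 and 106 in CD45.2 (−3.70, SE 0.381, adjusted p = 3.81e-20), with all 4 peaks called higher in the host, while Cxcr4 was higher in the graft as given above. Ccr1 was higher in the graft (0.84, adjusted p = 0.00340), though not at its strongest peak (−0.22), and its adjusted p was 0.0729 without CD45.1 of mouse 6. Ackr4, an atypical receptor, had 4.69, 14.8 and 4.22 tags in CD45.1 and 0 in each CD45.2 library, at 1 peak. With a floor of 3 tags over the 3 host libraries it was at least 8.29-fold higher in the graft.

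Of 22 genes of disease-associated microglia 6 were called higher in the graft and 2 in the host, and 3 and none with scaling to total tags. The share called was 36.4%, against 14.8% of all genes. Igf1, the insulin-like growth factor, had 139, 122 and 108 tags in CD45.1 and 30.8, 27.1 and 29.9 in CD45.2 (2.08, SE 0.249, adjusted p = 4.84e-15), and Cybb, a subunit of the NADPH oxidase, 218, 254 and 258 against 97.2, 57.3 and 97.3 (1.56, SE 0.191, adjusted p = 3.26e-14). Apoe (1.66), Lpl (0.85), Clec7a (0.83) and Axl (0.81) completed the calls of the graft. Csf1, the growth factor of macrophages, was higher in the host, with 156, 185 and 164 against 330, 299 and 311 (−0.89, SE 0.139, adjusted p = 5.62e-09), and so was Cd9, a tetraspanin (−0.58, adjusted p = 3.04e-07). Spp1 (0.53, adjusted p = 0.0819), Trem2 and Ccl6 (0.07) did not pass the test.

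**Figure D5:**
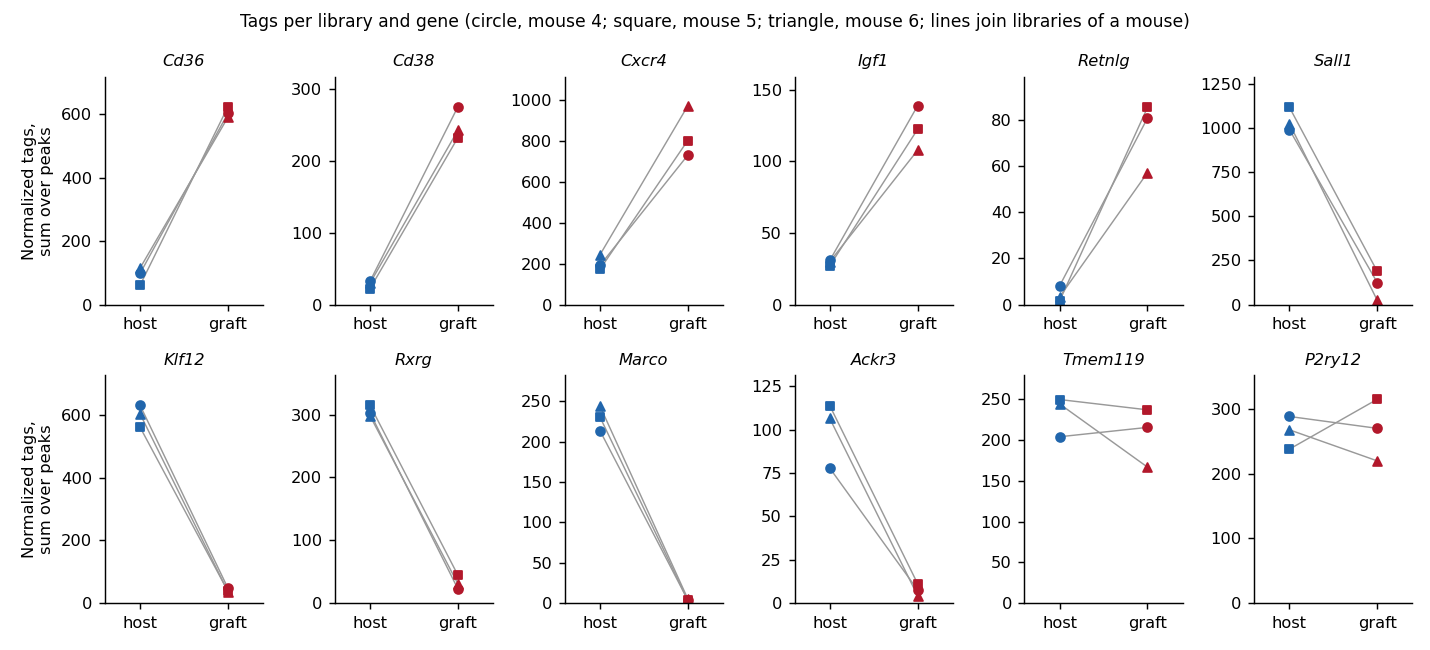
Normalized tags summed over the peaks of 12 genes (y axis, from 0) in CD45.2 host (blue) and CD45.1 graft (red) libraries of mouse 4 (circles), 5 (squares) and 6 (triangles), with lines joining the libraries of one mouse. Cd36, Cd38, Cxcr4, Igf1 and Retnlg rise and Sall1, Klf12, Rxrg, Marco and Ackr3 fall from host to graft in every mouse, while Tmem119 and P2ry12 cross.

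Genes that sense endotoxin were compared before any challenge. Of 24 members 23 had tested peaks, 5 were called higher in the graft and 1 in the host, with a median of 0.14. The share called was 26.1%, against 14.8% of all genes. Tlr2, a receptor for bacterial lipoproteins, had 966, 849 and 1022 tags in CD45.1 and 612, 573 and 597 in CD45.2 (0.67, SE 0.100, adjusted p = 1.01e-09), with −0.01 at its strongest peak. Irak4, a kinase of the pathway (1.03, adjusted p = 5.18e-06), and Irak3, its inhibitor (0.95, adjusted p = 1.44e-09), were higher in the graft. Tlr3, which senses double-stranded RNA, was higher in the host (−0.66, adjusted p = 0.000436). Cd14 (0.49) and Tlr13 (0.49) were not called under the mouse block (adjusted p = 0.0647 and 0.0734), and with scaling to total tags none of the list was. Of 11 MHC class II genes 1 was called, Ciita, the activator of the class (1.29, adjusted p = 3.17e-07). That share, 9.09%, was below the 14.8% of all genes.

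The study sorted CD11b+ cells negative for Ly6C/G and low for CD45.1 or CD45.2, a gate that would remove neutrophils, lymphocytes and cells of neural or endothelial origin. Peaks of the marker genes of such cells were counted. Summed tags of 7 neuron markers with tested peaks ranged from 239 to 258 in CD45.1 and from 421 to 441 in CD45.2, and those of 7 astrocyte markers from 736 to 938 and from 1474 to 1656. Endothelial markers, 6 of 7 with tested peaks, ranged from 672 to 743 and from 931 to 1060, while those of oligodendrocyte markers overlapped (1054 to 1077 and 1045 to 1077). Called higher in the host were Snap25 (−3.18), Syt1 (1 tag in CD45.1 and 156 in CD45.2, a ratio of 157 with a 95% counting interval from 27.7 to 6233) and Rbfox3 of neurons, Slc1a3 (−1.56), Slc1a2 (−0.68) and Aldh1l1 of astrocytes, Mog of oligodendrocytes (−0.85), and Cdh5 (−2.51) and Kdr of endothelium. Slc1a3 and Cdh5 had 10 of 19 and 5 of 9 peaks called, against 6.43% of all tested peaks. Gja1 of astrocytes was higher in the graft (0.75), and lower over its peaks within 50 kb of the start (−0.43). Neutrophil markers, 4 of 8 with tested peaks, ranged from 154 to 161 in CD45.1 and from 82.0 to 110 in CD45.2, with Retnlg, a resistin-like protein, at 80.6, 85.2 and 57.0 against 8.10, 1.59 and 3.32 (4.34, SE 0.514, adjusted p = 2.85e-15) and S100a9 at −1.16. B cell markers were between 165 and 187 and between 123 and 143, with Ms4a1 at 1.73 and Ebf1 at −1.001, and T cell markers between 202 and 248 and between 237 and 249, with Cd3d at 0.70 and Lck at −0.92. Rbfox3, Aldh1l1, Kdr, S100a9, Ebf1, Cd3d and Lck were not called under the mouse block (adjusted p from 0.0666 to 0.141). With both directions together, 42.9% of neuron, 57.1% of astrocyte, 16.7% of oligodendrocyte and 33.3% of endothelial markers were called. Of all genes 14.8% were. For T cells, B cells and neutrophils the shares were 40.0%, 66.7% and 50.0%, of only 5, 3 and 4 genes. The part of such cells in the differences above was not tested.

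The differences found at rest were followed in 3 other chimeras, mice 1, 2 and 3, which had received 2.5 mg/kg of LPS, a bacterial endotoxin, 12 h before. Peaks of these mice were called and merged separately, so peaks were matched where they overlapped reciprocally by at least 50%. In LPS mice 2.97% of 49180 tested peaks were called, 1.78% higher in the graft and 1.19% in the host. Of the 2237 resting peaks higher in the graft 1276 had a tested match. Of these matched peaks 99.3% had the same sign, 36.4% were called in the same direction and none in the opposite one. Of the 1567 higher in the host 728 had a tested match. Of these 99.9% had the same sign, 50.8% were called in the same direction and none in the opposite one. Resting calls without a tested match do not enter these shares. In neither set did a peak pass in the opposite direction with edgeR or at an unadjusted p under 0.05. Of the matched peaks not called at rest, 0.174% were called higher in the graft and 0.127% higher in the host.

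The median difference was smaller after LPS than at rest, mainly for peaks higher in the graft. The peaks were picked by their resting values, a choice that favours larger differences at rest. The median log2 fold change of matched peaks was 3.13 at rest and 2.11 after LPS for peaks higher in the graft, and −3.01 and −2.82 for peaks higher in the host. The LPS libraries were shallower, with 2966364 to 6556594.5 total tags, and whether the difference itself changed was not tested. At single sites, Hs3st1 (4.33), Apoe (2.32), Clec12a (3.73), Prox1 (−5.69), Id4 (−3.26) and Lyplal1 (−4.57) were called again. An intron of Sdcbp went from 2.18 to 0.59 and was not called, and the intron site of Slc1a3 went from −4.20 to −1.99.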

How the data were processed

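ATAC-seq measured accessible chromatin in CD45.1 and CD45.2 brain macrophages of chimeras. According to the labels and the submitters' processing notes the authors used bcl2fastq 2.17.1.14, Bowtie2, Picard 1.108 and HOMER on the build mm9. Peaks were called per library, merged within a treatment and annotated to the nearest start. The deposited values are estimated counts (expected counts), unnormalized HOMER tags in steps of 0.5. The merging kept peaks found in 1 library, and a shift of read ends is not given in the sources used here.

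Tags were rounded to whole numbers and tested with DESeq2 1.42.0 (R 4.3.3, Wald test, median-of-ratios factors, Benjamini-Hochberg adjustment), as in the study, and gene tests used tags summed over all peaks of a Gene Name. Normalized tags are tags divided by these factors (0.610 to 1.29 at rest). SE is the standard error of a fitted log2 value, and the 3 libraries per group were taken as separate mice. Libraries of the 2 populations were paired by replicate number, taken as the mouse. At rest, deviations of same-numbered libraries correlated with 0.152, 0.0571 and 0.0670, and those of different numbers with −0.127 to 0.0307. In LPS mice same-numbered libraries had −0.227, 0.0619 and 0.0590, and different numbers reached 0.194. The pairing thus rests on the numbers. Alternatives were edgeR 4.0.16, the mouse as a block, other scalings, filters and limits, and each library left out. The fits were tested on simulated data.

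Named peaks were the 3 called peaks per annotation class and direction, and the 6 promoters per direction, with the smallest adjusted p, same sign in all mice and no overlap. Named genes were the 6 per direction with most called peaks, up to 4 called members per list and direction, and members named in the study. Results for some of these are not reported here. The remaining named genes were added after their values were seen. The members and lists were chosen with earlier results of these data known. Sequences were read from the reference genome of build mm9 with pysam 0.24.0, and mitochondrial matches found with BLAST 2.17.0+. Intervals cover counting error only.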

Additional observations from a re-analysis of the deposited data

How the results depend on the processing

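Of 479 repeats of the 30 named peaks under other settings 467 kept direction and call, 12 at 5 peaks lost the call and none reversed. Of 1319 repeats of 83 named genes 1144 kept both, 169 at 49 genes lost the call, most with scaling to total tags (41), without mouse 4 (26), at the strongest peak (21) and with the mouse as a block (16, given beside each gene). Leaving out 1 library ended the call of 20 genes (adjusted p from 0.0503 to 0.395), 8, 6 and 12 of them when the graft library of mouse 4, 5 or 6 was dropped and 10, 14 and 12 for the host library: Aldh1l1, Bhlhe40, Ccr1, Cd14, Cd3d, Cebpe, Ebf1, Esr1, Flt3, Hoxb4, Kdr, Lck, Mx1, Napsa, Oas2, Rbfox3, S100a9, Tgfb2, Timd4 and Xaf1. Reversed were Ccr1 (−0.22), Flt3 (−0.0947), Ms4a7 (−0.0509), Tgfb3 (−0.0338) and Tlr2 (−0.0134) at the strongest peak and Gja1 (−0.43) within 50 kb. The cause was not tested. The block ended no call of a named peak.

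Peaks higher in the graft and host numbered 2237 and 1567, 686 and 441 with a mean count of at least 20, 3558 and 2400 with no fold limit, and 1347 to 2039 and 964 to 1363 with 1 library left out (lowest without CD45.2 of mouse 5, and 1001 host calls without CD45.2 of mouse 6). Those of the graft numbered 3381 at 2-fold and 1211 with the replicate block and a GC correction, those of the host 809 without mouse 4. With the block alone they numbered 1789 and 1174. Genes numbered 1189 and 1206, 775 and 817 with the replicate block, 384 and 391 with scaling to total tags, 704 and 782 at the strongest peak, 626 and 577 without mouse 4, and 750 to 938 and 761 to 1149 with 1 library left out (750 and 787 without CD45.2 of mouse 5, 761 host calls without CD45.2 of mouse 6). After LPS, 874 and 585 peaks were called, 525 and 357 with the block, 880 in the host with edgeR, and 328 to 608 and 242 to 377 with 1 library left out, a drop of over 1.5 times for each library except CD45.2 of mouse 1 in the graft. Resting calls also called after LPS were 45.3% and 63.4% with edgeR and 26.7% and 37.4% with the block. Promoters made up 6.83% of host calls and 8.30% when taken within 1 kb. The homeobox motif differed by 2.46 percentage points over 200 bp and 3.79 over 400 bp. Depth limits low peaks: with 3 libraries and medians of 16 to 35 tags per peak, small differences could not be called.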

Other observations

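Of 25 interferon-stimulated genes 23 had tested peaks, 5 were called higher in the graft and none in the host by DESeq2 or edgeR (1 at an unadjusted p under 0.05), with a median log2 fold change of 0.17, against 7.35% of all genes higher in the graft. Oas3, which makes the second messenger that activates RNase L, had 31.9, 27.8 and 43.3 tags in CD45.1 and 8.10, 7.96 and 11.6 in CD45.2 (1.87, SE 0.444, adjusted p = 0.000390), and it was the member still called with the mouse as a block. With scaling to total tags and without mouse 4, 1 member was called. Oas2, Mx1, Xaf1 and Rsad2 were not (adjusted p from 0.0609 to 0.145). Of 25 targets of p53, a factor of the response to DNA damage, 24 had tested peaks and 1 was called (2 in the host with edgeR). The called share of p53 targets, 4.17%, was below the 14.8% of all genes. The called gene was Eda2r, a receptor of the TNF family. It had 8.44, 13.9 and 5.28 tags in CD45.1 and 81.0, 72.4 and 41.6 in CD45.2 (−2.79, SE 0.409, adjusted p = 5.31e-10). Of 15 housekeeping genes none was called by DESeq2 or edgeR, and none had an unadjusted p under 0.05.

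By chromosome, host calls were least frequent on X, with 7 of 1263 tested peaks (0.55%), and most frequent on chromosome 14 (5.09%), against 2.65% of all. These were read from all chromosomes after the calls were known.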
